A study of Drosophila melanogaster with 14 samples.

Results

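Transcripts recovered from the outer photoreceptors of the fly eye were set against the transcripts of whole wild-type heads. The comparison took 4 arrays of RNA bound to a FLAG-tagged poly(A)-binding protein (IP) and 6 arrays of whole heads of Canton-S flies, a wild-type strain (CS heads), 10 of the 14 arrays of the series, chosen by their labels alone. The IP came from heads carrying Rh1-GAL4 and P{UAS-dPABP-FLAG}, in which a promoter of the main rhodopsin drives GAL4 in photoreceptors R1-R6 and GAL4 switches on the tagged protein. The remaining 4 arrays held whole heads labelled Rh1-GAL4/P{UAS-hPABP-FLAG} (Rh1 heads), and they are used here as a second reference whose values stand beside the main ones. CS heads carry neither transgene. About 200 heads per IP sample were fixed in 1% formaldehyde for 30 min before the pull-down. Whole-head samples held about 100 heads each, and their labels give no fixation. Genotype, fixation as labelled and immunoprecipitation thus all differ between IP and CS heads and cannot be told apart. The labels name the fly protein in some places and the human protein in others, and neither age nor sex of the flies is stated. Nothing in the labels says that replicates came from separate cohorts, so p-values reflect only how these arrays spread, which may be technical.

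The poly(A) tails of messenger RNA are bound by poly(A)-binding protein, and tagging that protein in a single cell type is a way to recover the transcripts of that type from a mixed tissue. Each facet of the compound eye holds the outer photoreceptors R1-R6, the inner photoreceptors R7 and R8, and the lens-secreting cone cells and pigment cells around them. Photoreceptors detect light in the rhabdomere, a stack of microvilli that carries rhodopsin, the TRP and TRPL channels and the INAD scaffold, and they release histamine onto the optic lobe. The rest of the head holds the brain, glia, muscle, a layer of fat body, blood cells, antennae and cuticle. In such bulk samples fewer cells of a type and less RNA per cell cannot be told apart.

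Signals are linear array intensities scaled to a common trimmed mean, and differences are given on the scale of log2(signal + 32), IP minus CS heads, which understates the change of dim genes. Where a gene has several probe sets its brightest stands for it. The intensities carry no detection calls, and precision is limited by the number of arrays. Of 10844 genes on the array 7817 passed a filter on low signal and were tested. At limma's Benjamini-Hochberg adjusted p under 0.05, 2173 genes were higher in IP (27.8%) and 2689 were lower (34.4%), 62.2% together and 61.1% of all probe sets tested. The threshold for a call in what follows also asks for a difference of at least 2-fold, which 694 genes met as higher in IP (8.88%) and 709 as lower (9.07%), 17.9% together. Every count of called list members below is to be read against the shares of 8.88% and 9.07%. Every IP array lay above every CS head array for 1730 genes (22.1%) and below for 2179 (27.9%), 50.0% together. The median over all genes tested was -0.046.

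The IP arrays were less alike than the head arrays. Pairwise correlations of log2 signal across probe sets ran from 0.847 to 0.976 among IP arrays, against 0.980 to 0.994 among CS head arrays, and from 0.635 to 0.808 between the groups. The median SD of a probe set was 0.22 among IP arrays and 0.096 among CS head arrays. The 5′ over 3′ signal ratio of the control transcript eIF-4a, low where a target is short at its 5′ end, was 0.531, 0.0284, 0.209 and 0.0432 in IP replicates 1 to 4, against 0.444 to 0.593 in CS heads. The same ratio of GAPDH was 0.202, 0.0248, 0.169 and 0.0093 in IP, against 0.291 to 0.541 in CS heads, and that of actin 0.135, 0.02002, 0.0679 and 0.0167 in IP, against 0.317 to 0.394 in CS heads, so by these 2 controls every IP array was low. IP replicate 4 lay apart: 192 genes were more than 2-fold below the lowest of the other IP arrays there, against 9, 16 and 0 genes for IP replicates 1, 2 and 3. In the other direction 64 genes in IP replicate 1 and 39 in IP replicate 4 were more than 2-fold above the highest of the other IP arrays, against 0 and 1 for IP replicates 2 and 3. The part of IP replicate 4 in the results, and that of the 5′ ratio, was not tested beyond leaving arrays out. Without IP replicate 4 the calls were 643 higher and 662 lower, and without IP replicates 2 and 4 they were 644 higher and 631 lower.

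The label of the IP was set against defining genes of each cell type. Of 12 photoreceptor markers 5 were called higher in IP and 0 lower, with a median log2 fold of 0.54, but their summed signal overlapped, at 39095 to 62525 in IP and 53267 to 58624 in CS heads. Fat body markers fell in 7 of 7, and their summed signal was 12363 to 25174 in IP, against 107451 to 122167 in CS heads. Muscle markers fell in 5 of 6 tested, with sums of 4465 to 6218 in IP and 23797 to 39108 in CS heads. Markers of neurons other than photoreceptors fell in 5 of 7, hemocyte markers in 4 of 5, glial markers in 3 of 6 and antennal markers in 1 of 3 tested. None of these sums was near 0 in IP. Of the 4 genes listed for pigment and cone cells, Pdh, santa-maria, bw and st, 2 were called higher (santa-maria and bw) and 0 lower. Whether all 4 mark these cells was not tested. Their sums were 14115 to 18676 in IP, against 12937 to 13977 in CS heads. In CS heads the sums were mostly Pdh, whose mean there was 10988. Pdh differed by -0.26 and did not pass the test. The gene pros, a factor of R7 and cone cells that is not among these 4 genes, was called lower (-1.87). The rhodopsin genes ninaE, Rh3, Rh4, Rh5 and Rh6, and norpA, ninaC, w and Mhc, are not paired with a probe set in the gene table used and were not analysed here.

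**Figure D1:**
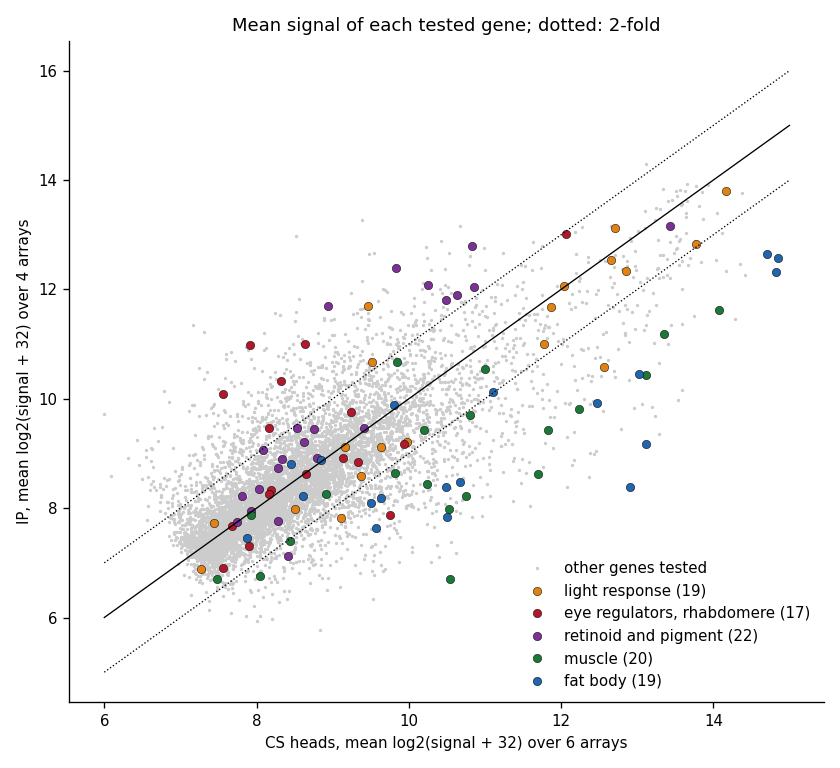
Mean log2(signal + 32) of each of the 7817 genes tested, over 6 CS head arrays on the x axis and 4 IP arrays on the y axis, with members of 5 gene lists in colour and the number tested in brackets. Muscle and fat body genes lie mostly under the lower dotted 2-fold line, eye regulators and pigment genes include the points far above the upper one, and most light response genes lie between the lines.

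Several regulators that build photoreceptors rose strongly in IP. Pph13, a homeodomain factor for rhabdomere growth and phototransduction genes, had signals of 1029, 1018, 1154 and 1026 on the IP arrays, against 132 to 175 (median 159.6) in CS heads. The groups were far apart and the IP arrays nearly alike (log2 fold 2.53, SE 0.080, adjusted p = 8.62e-10). Signals of eya, a cofactor of the early eye field, were 1922, 1669, 2053 and 2562 in IP and 344 to 398 (median 368) in CS heads (log2 fold 2.37, SE 0.11, adjusted p = 8.82e-09). Its partner so gave 699, 608, 754 and 646 in IP and 239.5 to 274 (median 255) in CS heads (log2 fold 1.30, SE 0.073, adjusted p = 4.32e-08). For gl, the zinc-finger factor that photoreceptors need to differentiate, IP arrays read 1145, 991, 1387 and 1554, against 260.2 to 321 (median 287) in CS heads (log2 fold 2.01, SE 0.12, adjusted p = 5.53e-08). All 4 factors had every IP array above every CS head array, as did 22.1% of all genes tested. For each the exact two-sided permutation p was 0.00952, the smallest that 210 arrangements of 4 against 6 arrays allow. Any gene without overlap has that p, so it does not set these 4 apart. The genes so and gl were named after their values were seen.

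Some structural genes of the rhabdomere rose as well, but eys, given below, did not. The strongest was prom, which encodes prominin, a protein that keeps the rhabdomeres of a facet apart, with 3079, 1630.1, 2106 and 1501 in IP and 201 to 224 (median 206) in CS heads (log2 fold 3.07, SE 0.16, adjusted p = 2.78e-08). Signal of chp, which encodes chaoptin, the adhesion protein of the microvilli, was 10945, 8495, 9380.4 and 5222 in IP and 3747 to 4893 (median 4236) in CS heads. That difference passed the test but stayed under 2-fold (log2 fold 0.95, SE 0.19, adjusted p = 9.39e-04). The list of 19 eye regulators and rhabdomere genes had 17 members tested, of which 5 were called higher, against 8.88% of all genes, and 1 was called lower, against 9.07%. The median of the list was 0.091. The member called lower was pros, a factor of R7 and cone cells, which had 207, 192, 177 and 243 in IP and 730.3 to 952 (median 833) in CS heads (log2 fold -1.87, SE 0.10, adjusted p = 2.31e-08). The R7 receptor gene sev (-0.60, adjusted p = 3.85e-05) and the neuronal factor onecut (-0.66, adjusted p = 2.03e-05) were also lower in IP, by less than 2-fold. Levels of eys, oc, dac and ro differed by 0.14, 0.091, -0.013 and -0.029 on the log2 scale and did not pass the test. The signs of these 4 differences turned in at least 1 alternative each, among them oc without IP replicate 1 (-0.31, adjusted p = 0.00752) and eys as the mean of its probe sets (-0.34, adjusted p = 8.22e-04).

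Genes of the light response itself were mostly no higher in IP than in wild-type heads. The channel gene trp gave 8524, 7403, 7411 and 2670.4 in IP, against 5790.4 to 6909 (median 6477) in CS heads. Only IP replicate 4 was below the CS heads, and the difference did not pass the test (log2 fold -0.11, SE 0.27, adjusted p = 0.743). Without IP replicate 4 the difference was 0.27 (adjusted p = 0.00764), and it was also positive with quantile or cyclic loess scaling. Signals of inaD, the scaffold that holds the channels to their enzymes, were 4016, 3993, 3536 and 1959 in IP and 3403 to 3945 (median 3689.8) in CS heads (log2 fold -0.19, SE 0.18, adjusted p = 0.395), and leaving out the same array gave 0.051. The second channel gene trpl was slightly lower in IP, with 5912, 5509, 5371 and 3938, against 7052 to 7803 (median 7298) in CS heads (log2 fold -0.52, SE 0.13, adjusted p = 0.00438), but its sign turned with quantile scaling (0.042). The visual arrestin gene Arr1 read 8966, 7285, 8784 and 4770.4 in IP and 13188 to 14718 (median 13846) in CS heads. All its IP arrays were below all CS head arrays, by a little under 2-fold on average (log2 fold -0.94, SE 0.18, adjusted p = 6.25e-04). Arr2, the more abundant arrestin of the eye, had 15480.3, 15408, 14722 and 11565 in IP and 17462 to 18894 (median 18312) in CS heads (log2 fold -0.36, SE 0.13, adjusted p = 0.0319). That small fall was no longer past the threshold after leaving out any of CS head replicates 1, 2, 3, 4 or 6 (adjusted p from 0.0556 to 0.0651), or with median or quantile scaling, and its sign turned with cyclic loess scaling (0.17).

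Other members of the light response list moved in both directions. The gene stops, which encodes a SOCS-box protein needed for the phospholipase C of the cascade, rose to 3477, 3835, 3048 and 2929 in IP, against 638 to 745 (median 675) in CS heads (log2 fold 2.23, SE 0.095, adjusted p = 5.05e-09). The lipid kinase gene PIP5K59B rose to 1664, 1510.2, 1393 and 1827 in IP, against 564 to 781 (median 724) in CS heads (log2 fold 1.15, SE 0.11, adjusted p = 4.25e-06). The mean of all probe sets of stops gave 1.03 (adjusted p = 0.00936). A second probe set of PIP5K59B moved the other way (log2 fold -0.54, adjusted p = 1.60e-04), so the direction of this gene depends on the probe set. A smaller rise was measured for rtp, which encodes retinophilin, a partner of the rhabdomere myosin, with 9852, 8206, 8835 and 8765 in IP and 5933 to 7383 (median 6689.7) in CS heads (log2 fold 0.42, SE 0.11, adjusted p = 0.00654). The rhodopsin phosphatase gene rdgC was lower, with 394, 127, 248 and 109 in IP and 479 to 572 (median 514) in CS heads (log2 fold -1.28, SE 0.26, adjusted p = 0.00105). The G protein gamma gene Ggamma30A read 5207, 1974, 3860.2 and 99.8 in IP and 5777 to 6263 (median 6030.3) in CS heads (log2 fold -1.99, SE 0.81, adjusted p = 0.0499). IP replicate 4 alone made most of that difference, which was -0.81 (adjusted p = 0.00656) without it and missed the threshold when IP replicate 2 or any CS head replicate was left out (adjusted p from 0.0724 to 0.0783). Of 19 tested members 2 were called higher and 2 lower, shares near the 8.88% and 9.07% of all genes. Their median was -0.39, and 7 did not pass the test at any size. The median was -0.23 without IP replicate 4, 0.023 without IP replicates 2 and 4, -0.042 with quantile scaling and -0.18 with cyclic loess scaling. The 2 lower calls became 4 without IP replicate 1, 3 without IP replicate 3, 0 without IP replicates 2 and 4, and 1 without any other single array or with quantile, median or cyclic loess scaling.

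**Figure D2:**
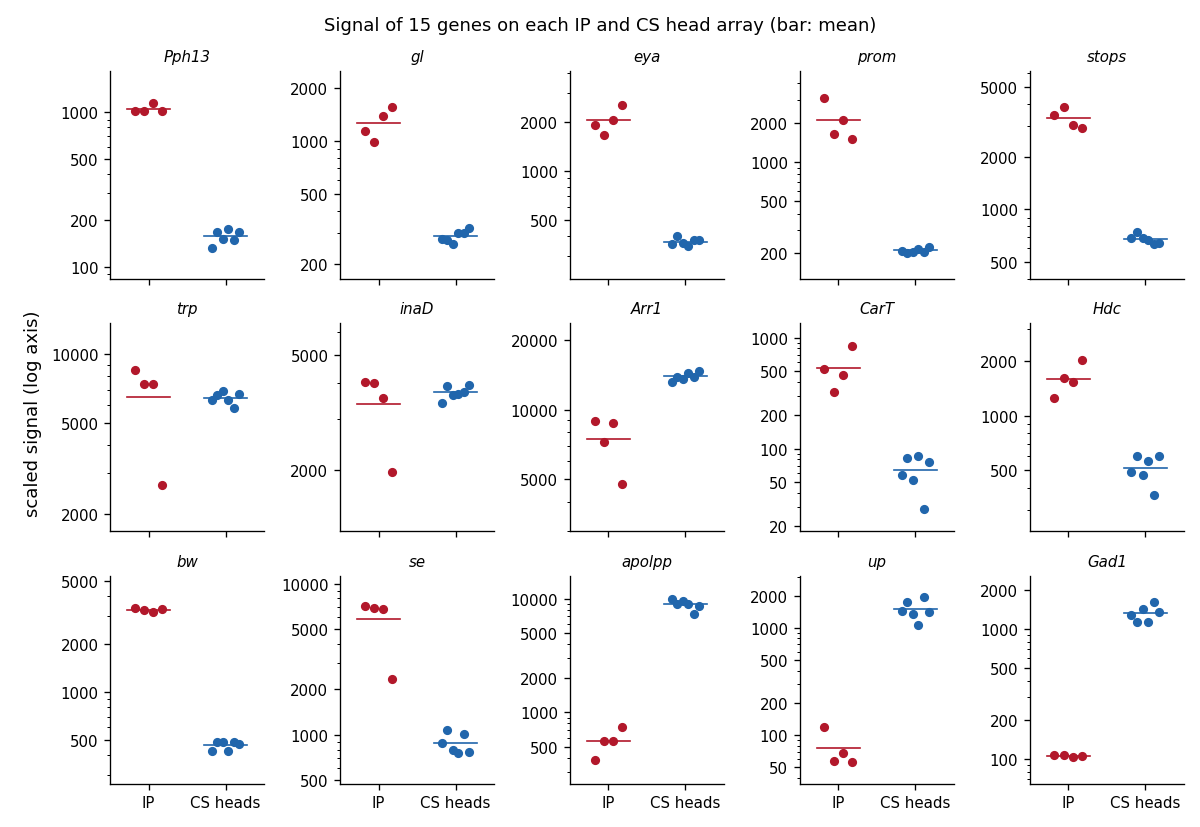
Scaled signal of 15 genes on each array, on log axes that differ between panels, with the 4 IP arrays left and the 6 CS head arrays right and a bar at each mean. Pph13, gl, eya, prom, stops, CarT, Hdc, bw and se are higher on every IP array, trp and inaD overlap between the groups with IP replicate 4 lowest, and Arr1, apolpp, up and Gad1 are lower on every IP array.

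Photoreceptors signal with histamine, and the genes for its synthesis and its return to the cell rose. Hdc, the histidine decarboxylase that makes histamine, had 1259, 1605, 1530.4 and 2022 in IP and 366 to 601 (median 525) in CS heads (log2 fold 1.58, SE 0.16, adjusted p = 4.00e-06). CarT, the carrier that brings the conjugate carcinine back into the photoreceptor, had 519, 324, 456 and 837 in IP and 28.7 to 85.0 (median 67.0) in CS heads (log2 fold 2.52, SE 0.24, adjusted p = 2.94e-06). In the CS heads its signal was close to the pseudocount of 32 on the dimmest array, so the fold is understated. The bright IP arrays also entered the filter on low signal that CarT passed, so its place among the tested members is not independent of its rise. The gene e, whose product ebony conjugates histamine to beta-alanine in glia, went the other way, with 157, 260.4, 228 and 342 in IP and 883 to 1117 (median 1019) in CS heads (log2 fold -1.94, SE 0.16, adjusted p = 7.63e-07). The histamine-gated channel gene ort, used by the target neurons of the optic lobe, was lower by less than 2-fold (log2 fold -0.49, SE 0.089, adjusted p = 5.10e-04). The hydrolase gene t, which frees histamine from carcinine in photoreceptors, read 4961, 668, 3174 and 259.7 in IP and 1635 to 2124 in CS heads, so its IP arrays lay on both sides of the CS heads. Its log2 fold of -0.46 did not pass the test (adjusted p = 0.552), and its sign turned without IP replicate 4 (0.27, adjusted p = 0.611) and without IP replicates 2 and 4 (1.11, adjusted p = 6.05e-05). Thus 2 of the 5 tested members were called higher and 1 lower.

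Several genes of the eye pigments rose in IP. The fly eye is coloured by red drosopterins, made from GTP, and by brown ommochromes, made from tryptophan. The transporter gene bw, whose product carries pteridine precursors, read 3379, 3299, 3205 and 3319 in IP, against 424 to 483 (median 475) in CS heads. Its 4 IP arrays were nearly equal and all far above the CS heads (log2 fold 2.76, SE 0.075, adjusted p = 6.06e-10), and the mean of its probe sets gave 1.599. Pu, the GTP cyclohydrolase that starts drosopterin synthesis, had 7289, 6270.1, 6933 and 7959 in IP and 1494 to 2196 (median 1702) in CS heads (log2 fold 1.97, SE 0.13, adjusted p = 1.97e-07). The late drosopterin enzyme gene se had 7091, 6957, 6831 and 2349.6 in IP and 763 to 1084 (median 840.3) in CS heads (log2 fold 2.55, SE 0.28, adjusted p = 1.06e-05). IP replicate 4 was well below the other IP arrays for se and still above every CS head array. Also called higher, and named after their values were seen, were the drosopterin genes pr (1.83, adjusted p = 1.00e-07) and cl (1.32, adjusted p = 7.33e-05). The ommochrome genes st (0.56) and cn (0.31) passed the test with smaller rises, and cn missed it with 1 weight per group (adjusted p = 0.0664). The fall in this list was ry, xanthine dehydrogenase, with 90.7, 101, 106 and 135 in IP and 263 to 334 (median 315) in CS heads (log2 fold -1.29, SE 0.094, adjusted p = 3.40e-07). Among subunits of the AP-3 adaptor, which sorts cargo to pigment granules, or (0.59) and cm (0.46) passed as higher, g (-0.52) passed as lower, and rb (-0.0055) did not pass.

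Carotenoid uptake and the retinoid cycle were represented by 2 further calls. The scavenger receptor gene santa-maria, which takes up carotenoids, had a log2 fold of 1.26 (adjusted p = 1.46e-06), and the retinol dehydrogenase gene rdhB one of 1.19 (adjusted p = 0.00151). The carotenoid-cleaving enzyme gene ninaB read 1619, 582, 1413 and 136 in IP and 308 to 374 in CS heads, with only IP replicate 4 below the heads. Its log2 fold of 0.92 did not pass (adjusted p = 0.135), and without IP replicate 4 it was 1.61 and passed (adjusted p = 1.11e-04). The pigment cell dehydrogenase gene Pdh differed by -0.26 and did not pass (adjusted p = 0.138), and its sign turned with quantile (0.085) and cyclic loess (0.23) scaling. Over the list of retinoid and pigment genes 7 of 22 tested members were called higher and 1 lower, with a median of 0.58. Pigment cells hold pigment genes too, and none of the genes listed above for pigment and cone cells was called lower in IP. The factor pros of R7 and cone cells, outside that list, was called lower. The part of those cells in these values was not tested.

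Beyond the eye genes, the largest rises named by rank came from genes of mixed or unrecorded function. CG15369 led, with 9406, 10768, 7815 and 5132 in IP and 309 to 376 (median 334) in CS heads (log2 fold 4.45, SE 0.17, adjusted p = 2.39e-09). ZnT35C, a zinc transporter, gave 3049, 2606, 2499.8 and 2204 in IP and 105 to 119 (median 110.1) in CS heads (log2 fold 4.18, SE 0.087, adjusted p = 1.48e-10). Every IP array was far above every CS head array. Jhbp2, named for similarity to juvenile hormone binding proteins, read 10531, 11108, 10294 and 7774 in IP and 562 to 716 (median 625) in CS heads (log2 fold 3.88, SE 0.12, adjusted p = 7.97e-10). Uhg1, a host gene of small nucleolar RNAs, had 502, 769, 758 and 1510.4 in IP and 27.6 to 35.2 (median 32.4) in CS heads (log2 fold 3.74, SE 0.22, adjusted p = 5.39e-08). Its CS head signal lay about the pseudocount of 32, so the fold is understated. The bright IP arrays also entered the filter on low signal that it passed. The same 20 held Chi, a cofactor of LIM-homeodomain factors (3.12), the glypican gene dlp (3.21), the septate junction gene Ssk (3.32), the nuclear membrane gene MAN1 (3.09), stc (3.14), SCCRO4 (3.11), CG10126 (3.27), CG8066 (3.20) and CG17777 (3.13), with adjusted p from 7.22e-10 to 7.47e-08. The antisense gene asRNA:CR43468 (3.08) is named as the gene table gives it and is uncertain, since its probe set may read a neighbour. It was dim in both kinds of head, with means of 83.7 in CS heads and 112 in Rh1 heads. For this gene too the bright IP arrays entered the filter on low signal.

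RNA-binding proteins included 2 of these largest rises. Pabp2, the nuclear poly(A)-binding protein, had 1409, 721, 1019 and 1374 in IP and 63.0 to 90.2 (median 81.0) in CS heads (log2 fold 3.35, SE 0.16, adjusted p = 1.38e-08). Pabp2 was dim in the heads, and the bright IP arrays entered the filter on low signal that it passed. Rbp9, a neuronal protein of the Hu family, had 3579.8, 2422, 2911 and 3461 in IP and 273 to 429.6 (median 336) in CS heads (log2 fold 3.07, SE 0.15, adjusted p = 1.25e-08), and the mean of its probe sets gave 1.46. Another Hu family gene, fne, went the opposite way, with 116, 117, 116 and 131 in IP and 433 to 613 (median 565) in CS heads (log2 fold -1.94, SE 0.10, adjusted p = 1.62e-08). The splicing regulator gene ps was lower too (log2 fold -1.34, SE 0.18, adjusted p = 6.13e-05). Over the list of RNA-binding genes 1 of 13 was called higher and 2 lower, against 8.88% and 9.07% of all genes. The endogenous cytoplasmic gene pAbp read 11116, 6686, 9642 and 9689 in IP, against 5514 to 7042 (median 6639) in CS heads, and the groups overlapped (log2 fold 0.50, SE 0.15, adjusted p = 0.0135). Since the labels do not settle which protein the transgene encodes, this probe set is no check of it. The pan-neuronal gene elav was below the filter, with 63.4, 59.1, 24.3 and 45.3 in IP and 61.8 to 88.4 (median 72.3) in CS heads, and was not tested.

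For 4 of the 20 largest rises IP replicate 4 was far dimmer than the other IP arrays. Atx-1, the fly ataxin 1 gene, had 5247, 3467, 4077 and 390.1 in IP and 111 to 150.0 (median 131) in CS heads (log2 fold 3.90, SE 0.56, adjusted p = 9.10e-05), and its log2 fold was 4.73 without IP replicate 4. CG9150 had 3297, 2003, 2599.7 and 262 in IP and 115 to 129 (median 117) in CS heads (log2 fold 3.32, SE 0.53, adjusted p = 2.11e-04), and 4.10 without that array. CG14636 read 5445, 4320.1, 4299.8 and 726 in IP and 244 to 355 (median 278) in CS heads (log2 fold 3.23, SE 0.45, adjusted p = 6.76e-05), and 3.89 without it. CG13117 read 10773, 11342, 11938 and 1127 in IP and 653 to 702 (median 683) in CS heads (log2 fold 3.17, SE 0.55, adjusted p = 3.73e-04), and 4.00 without it. Even the dim array lay above every CS head array in each case, which the rule for naming the 20 largest rises requires.

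Muscle genes were strongly depleted from IP. The troponin T gene up had 119, 57.5, 68.6 and 56.7 in IP, against 1059 to 1922 (median 1423) in CS heads (log2 fold -3.83, SE 0.18, adjusted p = 1.17e-08). Prm, the paramyosin of the thick filament core, had 367, 318, 386 and 391 in IP and 2083 to 4228 (median 3485) in CS heads (log2 fold -3.06, SE 0.17, adjusted p = 3.79e-08). The myosin light chain gene Mlc1 read 1304, 962, 1469 and 1778 in IP and 6021 to 11311 (median 9045) in CS heads (log2 fold -2.68, SE 0.20, adjusted p = 3.40e-07). In all 3 the groups did not overlap, and the CS heads themselves spread widely. Of 20 tested muscle genes 14 were called lower and 0 higher, with a median of -1.55. The exception that passed the test upward was Strn-Mlck, a kinase gene of the titin family, with 1786, 1739, 1745 and 1189.7 in IP and 787 to 965 (median 892) in CS heads (log2 fold 0.83, SE 0.12, adjusted p = 9.18e-05). The troponin C gene TpnC73F did not pass (-0.064, adjusted p = 0.689), but was lower without IP replicate 4 (-0.22, adjusted p = 0.0216).

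Fat body genes were depleted as well. The largest fall of all genes was fit, a female-biased secreted protein gene of the head fat body, with 169.6, 336, 311 and 471 in IP and 5200.0 to 9119 (median 7998) in CS heads (log2 fold -4.51, SE 0.23, adjusted p = 2.25e-08). The lipoprotein precursor gene apolpp had 379, 564, 560.3 and 744 in IP and 7274 to 9958 (median 8985) in CS heads (log2 fold -3.94, SE 0.16, adjusted p = 3.89e-09). The lipid droplet gene Lsd-2 read 235, 172, 213 and 173 in IP and 935 to 1918 (median 1493) in CS heads (log2 fold -2.66, SE 0.17, adjusted p = 1.46e-07). Yolk protein genes Yp1, Yp2 and Yp3, products of the female fat body, had log2 folds of -2.28, -2.51 and -2.06. Over the list 13 of 19 members were called lower and 0 higher, with a median of -2.06. The lipase gene bmm (0.088), the phosphatase gene Lpin (0.36) and Fbp1 (0.043) did not pass, although Lpin passed as higher without IP replicate 1 (0.50, adjusted p = 0.0055) or IP replicate 3 (0.44, adjusted p = 0.0378).

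Metabolic and secreted genes filled most of the remaining 20 largest falls. Tps1, trehalose-6-phosphate synthase, which makes the blood sugar of insects, had 664, 1035, 783 and 716 in IP and 8388 to 10584 (median 9749) in CS heads (log2 fold -3.55, SE 0.13, adjusted p = 2.01e-09). Pepck1, an enzyme of gluconeogenesis, had 576, 419.8, 473 and 517 in IP and a wide 2344 to 9257 (median 6052) in CS heads (log2 fold -3.42, SE 0.30, adjusted p = 1.63e-06). The purine synthesis gene Paics read 610.4, 561, 799 and 724 in IP and 6197 to 7599 (median 7210.0) in CS heads (log2 fold -3.34, SE 0.12, adjusted p = 1.36e-09). Cyt-b5-r, a cytochrome b5 relative, had a log2 fold of -3.94, the clotting gene fon -3.79, the bomanin gene BomBc2, of the immune response, -3.44, and the peptide hormone gene Lst -3.26. The genes CG34166, Jhbp14, CG6067, CG2233 and CG3088 had log2 folds of -3.69, -3.55, -3.44, -3.43 and -3.33. Tret1-1 (-3.28) is uncertain because its probe set can share sequence with a related gene.

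Blood cell and basement membrane genes were lower as a group. SPARC, a collagen-binding matrix protein, had 591, 438, 541 and 387 in IP and 4921 to 5669 (median 5236) in CS heads (log2 fold -3.36, SE 0.12, adjusted p = 1.50e-09). The type IV collagen gene Col4a1 read 233, 217, 234 and 298 in IP and 1203 to 2000.3 (median 1518) in CS heads (log2 fold -2.51, SE 0.13, adjusted p = 2.53e-08), and glutactin, Glt, read 85.8, 130.0, 99.7 and 237 in IP and 1248 to 1329.6 (median 1282) in CS heads (log2 fold -3.03, SE 0.19, adjusted p = 7.87e-08). Of 11 tested members 6 were called lower and 1 higher, with a median of -1.16. The member called higher was crq, a scavenger receptor gene, with 669, 308, 552 and 959 in IP and 145 to 225 (median 201) in CS heads (log2 fold 1.46, SE 0.24, adjusted p = 2.43e-04). Among 12 immune genes 3 were called lower and 1 higher. The antifungal peptide gene Drs read 305, 406, 332 and 421 in IP and a wide 735 to 3840.2 (median 1207) in CS heads (log2 fold -2.01, SE 0.39, adjusted p = 8.99e-04), and the peptidoglycan amidase gene PGRP-SB1 had a log2 fold of -1.87 (adjusted p = 1.84e-07). CecB, a cecropin gene, was the member called higher (log2 fold 1.16, SE 0.15, adjusted p = 3.22e-05).

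Odorant-binding protein genes of the antenna and taste organs were the other large secreted group, with 11 of 22 tested members called lower and 1 higher, and a median of -0.97. Obp99c read 914, 1169, 1178 and 712 in IP and 10419.9 to 12670.0 (median 12150.2) in CS heads (log2 fold -3.57, SE 0.15, adjusted p = 3.89e-09). Obp56e read 560.3, 1171, 912 and 845 in IP and 4763 to 7698 (median 5827) in CS heads (log2 fold -2.78, SE 0.19, adjusted p = 1.78e-07), and Obp56d had a log2 fold of -2.56 (adjusted p = 4.58e-08). The gene called higher was Obp8a, with 400.2, 656, 602 and 582 in IP and 221 to 270.3 (median 247) in CS heads (log2 fold 1.07, SE 0.12, adjusted p = 1.21e-05).

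**Figure D3:**
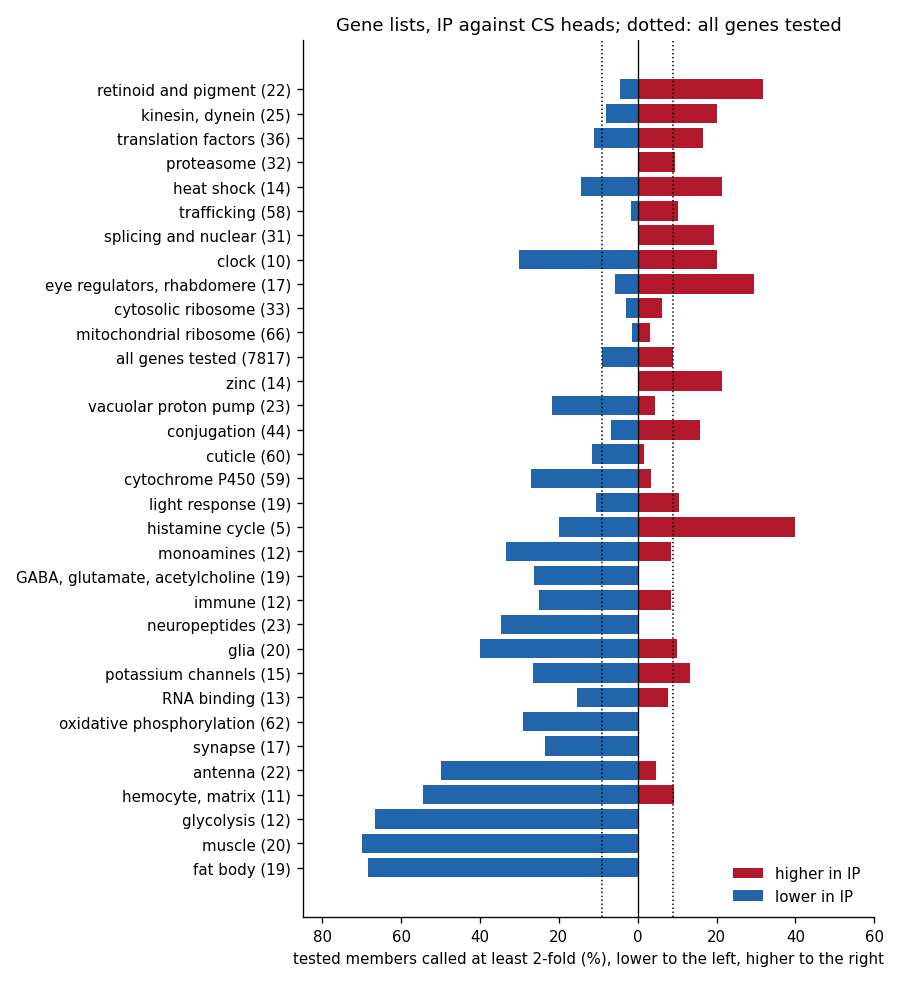
Share of the tested members of each gene list that were called at least 2-fold at adjusted p under 0.05, lower in IP to the left and higher in IP to the right, ordered by the median log2 fold, with the number tested in brackets and all genes tested as dotted lines at 8.88% and 9.07%. Fat body, muscle, glycolysis, hemocyte and antennal lists reach furthest left, and histamine, retinoid and pigment, and eye regulator lists reach furthest right.

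Transmitter genes of brain neurons were called lower more often than higher, with list medians nearer 0 than those of muscle and fat body genes. The exception in size was Gad1, the glutamate decarboxylase that makes GABA, with 107, 109, 104.2 and 106 in IP and 1142 to 1617 (median 1315) in CS heads (log2 fold -3.28, SE 0.10, adjusted p = 7.91e-10). The glutamate-gated chloride channel gene GluClalpha had 27.8, 32.8, 19.8 and 45.8 in IP and 233 to 317 (median 263) in CS heads (log2 fold -2.23, SE 0.12, adjusted p = 2.32e-08). ChAT, choline acetyltransferase, had 299, 248, 211 and 239 in IP and 601 to 670.3 (median 627) in CS heads (log2 fold -1.24, SE 0.085, adjusted p = 2.03e-07). Of 19 tested genes for GABA, glutamate and acetylcholine 5 were called lower and 0 higher, with a median of -0.49. Dopamine and other monoamine genes gave 4 lower calls of 12, among them the vesicular transporter gene Vmat (-1.56, adjusted p = 1.30e-06), the tyrosine hydroxylase gene ple (-1.22, adjusted p = 5.11e-04) and the receptor gene DopEcR (-1.32, adjusted p = 2.59e-07). The serotonin receptor gene 5-HT2A was called higher, with 966, 1313, 1450.3 and 1471 in IP and 390.5 to 499.7 (median 428) in CS heads (log2 fold 1.49, SE 0.12, adjusted p = 8.85e-07).

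Neuropeptide genes were called lower in 8 of 23 and higher in 0, with a median of -0.61. The myosuppressin gene Ms read 109, 133, 167 and 274 in IP and 777 to 1130.2 (median 862) in CS heads (log2 fold -2.24, SE 0.19, adjusted p = 1.26e-06). Nplp2, among the brightest transcripts of the head, read 4098, 6164, 4812 and 4741 in IP and 20864 to 22347 (median 21864) in CS heads (log2 fold -2.14, SE 0.13, adjusted p = 9.64e-08). The diuretic hormone gene Dh31 read 46.8, 62.0, 60.3 and 112 in IP and 294 to 454 (median 391) in CS heads (log2 fold -2.06, SE 0.16, adjusted p = 5.62e-07). Phm, the enzyme that amidates peptides, passed upward by less than 2-fold, with 3269.5, 3293, 3016 and 3516 in IP and 1619 to 2289.7 (median 2085) in CS heads (log2 fold 0.67, SE 0.11, adjusted p = 2.38e-04). Presynaptic genes gave 4 lower and 0 higher calls of 17. Sap47 (-2.14, adjusted p = 1.17e-04), the synapsin gene Syn (-1.87, adjusted p = 1.56e-05) and unc-104 (-1.67, adjusted p = 1.33e-06), the kinesin that carries synaptic vesicle precursors, were lowest.

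Potassium channel genes were called in both directions. Sh, the A-type channel of photoreceptors and neurons, read 132, 45.8, 50.7 and 44.1 in IP and 374 to 619 (median 538) in CS heads (log2 fold -2.53, SE 0.21, adjusted p = 1.10e-06), although other probe sets of Sh gave log2 folds of -0.70, -0.080 and -0.30. The calcium-gated channel gene slo was lower (log2 fold -1.61, SE 0.17, adjusted p = 8.49e-06). Its binding partner Slob was higher, with 4658, 4271, 3997 and 2867 in IP and 1296 to 1467 (median 1348) in CS heads (log2 fold 1.49, SE 0.13, adjusted p = 1.29e-06), although the mean of its probe sets gave 0.33 (adjusted p = 0.012). Also higher was the Erg-type channel gene sei, with 863, 959, 867 and 1260.4 in IP and 337 to 375 (median 364) in CS heads (log2 fold 1.36, SE 0.10, adjusted p = 4.43e-07). The sodium-gated channel gene SLO2 was called lower on its brightest probe set (-1.13), and its 2 other probe sets gave 0.11 and 0.44. In all 2 of 15 were called higher and 4 lower, with a median of -0.62.

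Glial genes were called lower more often than higher. The GABA transporter gene Gat read 114, 108, 106 and 133 in IP and 887 to 1074 (median 1047) in CS heads (log2 fold -2.84, SE 0.080, adjusted p = 6.31e-10), and the astrocyte gene alrm read 412, 432, 605 and 797 in IP and 1436 to 1908 (median 1695) in CS heads (log2 fold -1.55, SE 0.17, adjusted p = 9.07e-06). The 3 largest rises of the list were genes of septate junctions, which seal epithelia and the glial barrier. Gli, gliotactin, had 703, 402, 827 and 1237 in IP and 153 to 207 (median 190.4) in CS heads (log2 fold 1.82, SE 0.23, adjusted p = 2.74e-05). Nrx-IV had a log2 fold of 1.32 (adjusted p = 8.25e-05) and Cont, contactin, one of 0.95 (adjusted p = 0.00404), but over Rh1 heads these were 0.60 (adjusted p = 0.063) and 0.32 (adjusted p = 0.37) and did not pass. The glial master regulator gene repo gave 426, 484, 532 and 482 in IP and 305 to 496 (median 411) in CS heads, an overlap that did not pass (log2 fold 0.24, SE 0.11, adjusted p = 0.0882). Over the list 2 of 20 were called higher and 8 lower, with a median of -0.62, and the 8 became 4 without IP replicates 2 and 4 and the 2 became 4 without IP replicate 1. The share called higher was near the 8.88% of all genes.

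Genes of energy metabolism were lower in IP. Of 62 nuclear genes of oxidative phosphorylation 18 were called lower and 0 higher, with a median of -0.68, and 42 passed the test as lower. Of all genes tested 9.07% were called lower. Among the genes brightest in Rh1 heads, the top decile described below, 35.5% were called lower, with a median of -0.58. The part of brightness in the falls of energy genes was not tested. The ATP synthase alpha gene blw had 4695, 3058, 3861 and 1250.0 in IP and 12069 to 14567 (median 13909) in CS heads (log2 fold -2.24, SE 0.29, adjusted p = 4.39e-05). The complex I gene ND-51 had 1011, 938, 1048 and 593 in IP and 3114 to 3698 (median 3434) in CS heads (log2 fold -1.93, SE 0.15, adjusted p = 4.67e-07). Cyt-c1, of complex III, varied widely over IP, with 2484, 701, 1618 and 295, against 4430.1 to 6275 (median 5591) in CS heads (log2 fold -2.45, SE 0.44, adjusted p = 5.27e-04). The median was -0.40 with quantile and -0.30 with cyclic loess scaling. The count of 18 was 11 without IP replicate 4, 10 without IP replicates 2 and 4 and 11 with cyclic loess scaling. Glycolysis and sugar genes gave 8 lower calls of 12 and 0 higher, with a median of -1.23. The aldolase gene Ald1 read 8737, 1516, 4055 and 842 in IP and 11668 to 13019 (median 12177) in CS heads (log2 fold -2.22, SE 0.50, adjusted p = 0.00226), and the trehalase gene Treh read 486, 412, 608 and 299 in IP and 1497 to 2479.8 (median 1867) in CS heads (log2 fold -2.01, SE 0.18, adjusted p = 2.00e-06). IP replicates 2 and 4, which had the lowest 5′ ratios, were the lowest IP arrays for Ald1, Cyt-c1 and blw. The part of the 5′ ratio in these values was not tested. The count for glycolysis was 5 with cyclic loess scaling.

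Genes of protein production and turnover moved less. Cytosolic ribosomal protein genes had a median of 0.070 over 33 tested, which was 0.32 with quantile and 0.50 with cyclic loess scaling, with 2 called higher and 1 lower. Mitochondrial ribosomal protein genes had a median of 0.028 over 66, with 2 higher and 1 lower, both under the share of all genes. RpLP0, of the large subunit stalk, read 7289, 4107, 6438 and 1149.9 in IP and 8762 to 9864 (median 9472) in CS heads (log2 fold -1.28, SE 0.41, adjusted p = 0.0176) and was not past the threshold with quantile scaling. Translation factors gave 6 higher and 4 lower calls of 36, with a median of 0.36. The cap-binding gene eIF4E1 had 2498, 3085, 2906 and 2669 in IP and 574 to 802 (median 685) in CS heads (log2 fold 1.99, SE 0.11, adjusted p = 2.70e-08), and the release factor gene eRF1 had 2436, 2187, 2253 and 1997 in IP and 601 to 706 (median 683) in CS heads (log2 fold 1.68, SE 0.084, adjusted p = 1.63e-08). The 4 lower calls became 2 without IP replicate 4 and 0 without IP replicates 2 and 4. One of them, eEF1alpha2, read 1369.8, 223, 803 and 94.4 in IP and 1399 to 2005 (median 1802) in CS heads (log2 fold -2.02, SE 0.53, adjusted p = 0.00619), and gave -1.42 without IP replicate 4. Proteasome genes had a median of 0.29 over 32, with 3 called higher (Prosalpha3, Prosalpha7 and Prosbeta5, at 1.30, 1.05 and 1.01) and 0 lower, and the 3 became 1 without IP replicate 2. That share of higher calls is near the 8.88% of all genes. Over Rh1 heads the list median was -0.038, and these 3 genes stood at 0.64, 0.50 and 0.56, each under 2-fold. The list median of Rh1 heads minus CS heads was 0.41.

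Splicing, motor and trafficking genes had medians above 0. Of 31 splicing and nuclear genes 6 were called higher and 0 lower, with a median of 0.21. U2af38, the small subunit of the splice site factor, had 704, 668, 733 and 846 in IP and 179 to 240.1 (median 217) in CS heads (log2 fold 1.64, SE 0.089, adjusted p = 3.07e-08). The spliceosome core gene SmD3 had 907, 934, 879 and 833 in IP and 272 to 318 (median 298) in CS heads (log2 fold 1.49, SE 0.068, adjusted p = 8.79e-09), and Sf3b5 had a log2 fold of 1.43. Microtubule motor and tubulin genes gave 5 higher and 2 lower calls of 25, with a median of 0.36. The dynein light chain gene robl had 2480.3, 2836, 2754 and 1993 in IP and 818 to 888 (median 837) in CS heads (log2 fold 1.53, SE 0.10, adjusted p = 1.68e-07), and betaTub56D and Klc had log2 folds of 1.51 and 1.22. The microtubule-binding gene tau was lower, with 236, 195, 203 and 182 in IP and 550.0 to 641 (median 625) in CS heads (log2 fold -1.44, SE 0.082, adjusted p = 4.50e-08). Membrane trafficking genes gave 6 higher and 1 lower calls of 58, with a median of 0.22, a share of higher calls near the 8.88% of all genes. They were led by the ESCRT gene Vps24 (log2 fold 2.11, SE 0.11, adjusted p = 2.47e-08), and the translocon gene Sec61alpha was the lower one (log2 fold -1.89, SE 0.28, adjusted p = 1.24e-04). Vacuolar proton pump genes gave 1 higher and 5 lower calls of 23, and the 5 became 3 without IP replicate 4. VhaSFD, a subunit of the pump's outer part, read 772, 279, 461 and 324 in IP and 1111 to 1392 (median 1297) in CS heads (log2 fold -1.52, SE 0.22, adjusted p = 8.27e-05).

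Detoxification genes differed by family. Cytochrome P450 genes were called lower in 16 of 59 and higher in 2, with a median of -0.36. Cyp4ac1 read 21.1, 20.3, 24.4 and 24.3 in IP and 292 to 501 (median 449.8) in CS heads (log2 fold -3.06, SE 0.12, adjusted p = 3.24e-09). Cyp313a1 read 520.0, 488, 642 and 583 in IP and 3082 to 3971 (median 3444) in CS heads (log2 fold -2.59, SE 0.11, adjusted p = 4.69e-09). Cyp6a9 was called higher, with 1252, 705, 1555 and 1529 in IP and 229 to 288 (median 255) in CS heads (log2 fold 2.09, SE 0.19, adjusted p = 1.73e-06). Glutathione and glycosyl conjugation genes were called higher in 7 of 44 and lower in 3. Their median was -0.16, with 13 members past the test as higher at any size and 16 as lower. The glutathione transferase gene GstE3 had 3227, 2856, 3268 and 1487 in IP and 553 to 811 (median 683) in CS heads (log2 fold 1.89, SE 0.21, adjusted p = 9.83e-06), while GstE9 had 188, 193, 224 and 118 in IP and 945 to 1691 (median 1065) in CS heads (log2 fold -2.53, SE 0.19, adjusted p = 4.18e-07). Cuticle protein genes gave 1 higher and 7 lower calls of 60, a share of lower calls near the 9.07% of all genes. The lowest, Cpr100A, read 1215, 943, 1053 and 630.4 in IP and 2722 to 4992 (median 4515) in CS heads (log2 fold -2.13, SE 0.20, adjusted p = 2.92e-06). Among 14 zinc transporter genes 3 were called higher, ZnT35C, ZnT86D (1.29) and Catsup (1.03), and 0 lower.

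Clock genes moved in both directions. The light-sensitive repressor gene tim had 1592, 2528, 1949 and 2531 in IP and 426 to 519 (median 471) in CS heads (log2 fold 2.11, SE 0.13, adjusted p = 8.20e-08), and vri, a repressor of Clk, had 729.8, 699.7, 871 and 1328 in IP and 310.1 to 389.7 (median 356) in CS heads (log2 fold 1.24, SE 0.15, adjusted p = 2.96e-05). Clk, the activator, read 127, 53.6, 58.6 and 54.2 in IP and 172 to 228 (median 197) in CS heads (log2 fold -1.18, SE 0.16, adjusted p = 5.94e-05). The blue-light receptor gene cry (log2 fold -1.19, SE 0.18, adjusted p = 1.40e-04) and Pdp1, an activator of Clk (log2 fold -1.23, SE 0.19, adjusted p = 1.74e-04), were lower too. The labels give no time of day for any sample, so a difference of collection time cannot be told apart from these values. In all 2 of 10 were called higher and 3 lower, and the 3 became 1 without IP replicates 2 and 4. A second tested probe set of tim did not differ detectably (0.065, adjusted p = 0.685). Of 14 heat shock genes 3 were called higher and 2 lower. The small heat shock gene Hsp26 had 4792, 4429, 5549.7 and 3536 in IP and 602 to 710.2 (median 628) in CS heads (log2 fold 2.77, SE 0.12, adjusted p = 5.05e-09), and Hsp27 had 893, 837, 1067 and 1218 in IP and 248 to 279 (median 257) in CS heads (log2 fold 1.81, SE 0.10, adjusted p = 4.02e-08). The small heat shock gene l(2)efl was lower, with 356, 436, 409.5 and 494 in IP and 732 to 1272 (median 947) in CS heads (log2 fold -1.11, SE 0.14, adjusted p = 2.57e-05).

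The difference between IP and CS heads was then read by how bright a gene is in the head, with the brightness taken from the Rh1 heads, arrays that enter neither side. In the dimmest decile of the 7817 genes the median log2 fold was 0.092, in the next to brightest decile it was -0.19 and in the brightest decile -0.58. The share called lower rose with brightness, with 0.384% in the dimmest decile, 3.96% in the fifth and 35.5% in the brightest. The share called higher lay between 6.39% and 11.8% in every decile. Of the 709 lower calls 278 were in the brightest decile. The pseudocount of 32 shrinks the fold of dim genes in either direction. The filter on low signal used all arrays, IP included, so a gene dim in the heads could be tested because it was bright in IP, as CarT was. What part this had in the shares of the dim deciles was not tested. With this filter the share called higher in the dimmest decile was 8.44%. With no filter and all 10844 genes ranked by the Rh1 heads, a setting chosen after seeing the data, the share called lower was 0% in the dimmest decile, 2.67% in the fifth and 31.6% in the brightest, and the share called higher 1.75%, 7.56% and 9.03%. The medians of these 3 deciles were 0.10, 0.033 and -0.50.

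**Figure D4:**
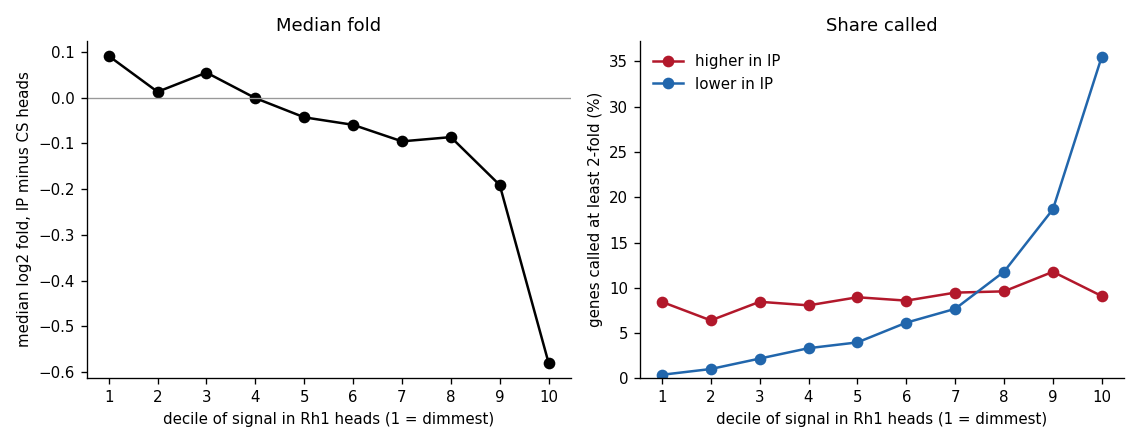
Median log2 fold of IP minus CS heads (left) and percent of genes called at least 2-fold higher or lower (right) in each decile of the 7817 genes tested, ordered on the x axis by signal in the Rh1 heads from dimmest to brightest. The median runs from 0.092 to -0.58 and the share lower from 0.384% to 35.5%, while the share higher stays between 6.39% and 11.8%.

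How far the result depends on the wild-type reference was read from the Rh1 heads. Like the IP heads they carry Rh1-GAL4 and a tagged poly(A)-binding protein, though the labels do not settle whether that protein is the same. Rh1 heads against CS heads gave 55 genes called higher and 47 lower, 1.30% of those tested, although 54.3% passed the test at any size. Among the 201 tested genes named by rank, list or in every case, 21 had Rh1 heads and CS heads at least 2-fold apart, 10 higher and 11 lower in Rh1 heads. For these genes the size of the difference depends on which head is the reference. IP is compared with both kinds of head on the same 4 arrays, so the values stand side by side and are no independent evidence of each other.

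Of the 19 light response genes tested 9 were called at least 2-fold lower in Rh1 heads than in CS heads, against 47 of all genes tested (0.601%). Signals of trp were 1049, 1118, 1087 and 1194 on the Rh1 head arrays, against 5790.4 to 6909 (median 6477) in CS heads, and the log2 fold of IP was 2.39 over Rh1 heads and -0.11 over CS heads. Signals of trpl were 754, 772, 690.1 and 743 in Rh1 heads, with log2 folds of IP of 2.74 over Rh1 heads and -0.52 over CS heads. For inaD the 2 values were 2.41 and -0.19, for rtp 2.47 and 0.42, for Arr1 0.47 and -0.94, and for Arr2 0.67 and -0.36. Thus trp, trpl and inaD were raised more than 2-fold over Rh1 heads, as were 7.47% of all genes tested, and not over wild-type heads. Hdc was raised over both, by 2.84 over Rh1 heads and 1.58 over CS heads, and Pph13 by 3.03 and 2.53. The median of the light response list was 0.43 over Rh1 heads and -0.39 over CS heads.

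Genes outside the light response also differed between the 2 kinds of head. Ugt35B1, a glycosyl transferase, read 785, 1018, 863 and 843 in IP, 2015, 2607, 2019.7 and 1937 in Rh1 heads and 122 to 159 (median 138) in CS heads. It was 2.42 over CS heads (adjusted p = 1.85e-09) and -1.26 over Rh1 heads (adjusted p = 5.09e-05), called in opposite directions. Cyp4e3 was 1.24 over CS heads and -0.063 over Rh1 heads, and Cpr49Ae 1.27 and 0.22, neither past the test over Rh1 heads. Cyp6w1 read 354, 487, 462 and 357 in IP, 1020.1, 1060.4, 1015 and 928 in Rh1 heads and 3273 to 6143 (median 4349) in CS heads, with log2 folds of -3.35 over CS heads and -1.23 over Rh1 heads. The first of the ranked rises, CG15369, was 4.45 over CS heads and 3.31 over Rh1 heads, and CG13117 was 3.17 and 1.48, the last not past the test (adjusted p = 0.0992). The largest fall, fit, was -4.51 over CS heads and -3.22 over Rh1 heads. Against both references Prm and Gad1 were far lower in IP: Prm was -3.06 over CS heads and -3.17 over Rh1 heads, and Gad1 -3.28 and -3.24.

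**Figure D5:**
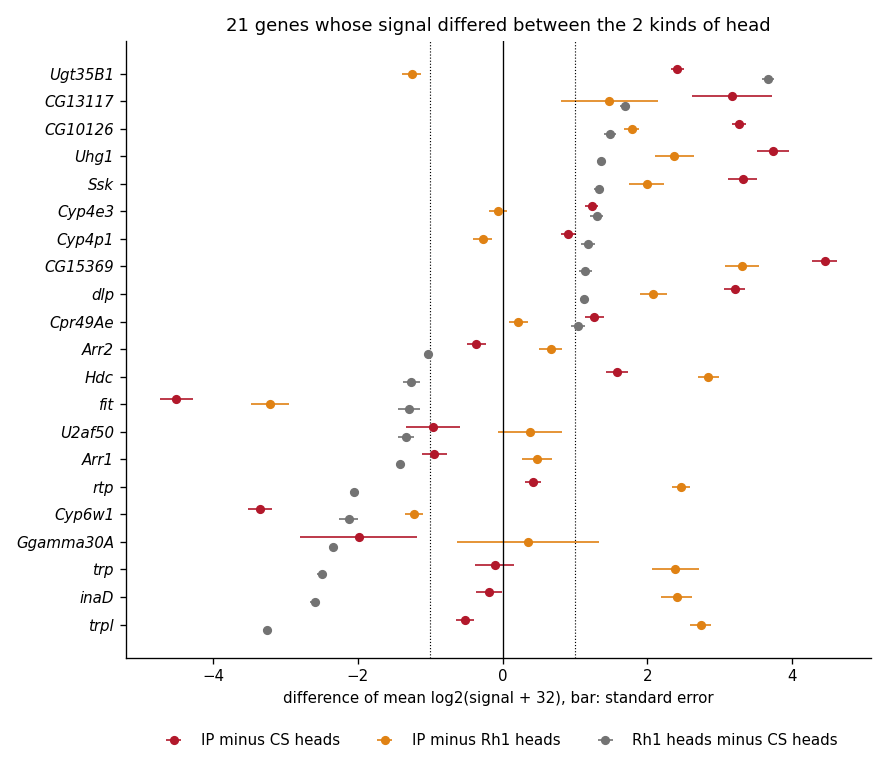
Difference of mean log2(signal + 32) for IP minus CS heads, IP minus Rh1 heads and Rh1 heads minus CS heads, with standard errors as bars, for the 21 named genes whose Rh1 and CS heads differed at least 2-fold, ordered by the last difference. At the bottom trp, inaD and trpl lie at -0.11, -0.19 and -0.52 against CS heads and at 2.39, 2.41 and 2.74 against Rh1 heads, and at the top Ugt35B1 lies at 2.42 against CS heads and at -1.26 against Rh1 heads.

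A gene with several probe sets can be read at more than 1 place. Among 699 genes with 2 or more tested probe sets, 37 had at least 2 that were called, and 3 of these had calls in opposite directions. They were spir, MESK2 and rhea, named after their values were seen. The actin nucleator gene spir had means of 995 in IP and 146 in CS heads (log2 fold 2.49) on the first and 397 in IP and 831 in CS heads (-1.06) on the second. MESK2 had means of 1976 in IP and 590.3 in CS heads (log2 fold 1.69) on the first and 90.3 in IP and 263 in CS heads (-1.27) on the second. The talin gene rhea had means of 1466 in IP and 661 in CS heads (log2 fold 1.09) on the first and 88.2 in IP and 299.7 in CS heads (-1.48) on the second. Where on the transcript each probe set lies was not analysed here, and the part of the low 5′ ratios of the IP arrays in these values was not tested. With the mean of all probe sets the log2 folds of up (-2.21), dlp (1.55), Ugt35B1 (1.48), tim (0.77), ps (-0.59), apolpp (-3.23) and pAbp (1.19) moved by over 1.5 times and kept their direction, and SLO2 (-0.20, adjusted p = 0.0608) no longer passed.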

How the data were processed

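Single-colour Affymetrix fly arrays were used. The deposited value table holds 1 linear intensity per probe set and array. The sources used here do not give how probe sets were summarised or scaled. The trimmed mean of an array, with 2% taken off each end, lay between 309.3 and 371.1, so each array was scaled to their mean. The 44 control probe sets served only for quality. Of the other 13966 probe sets 12443 had 1 gene in the platform's gene table, 327 several and 1196 none listed, and 12394 matched the RefSeq table for assembly Release 6 by gene identifier. No sequence or coordinate is given.

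Values were log2(signal + 32), and 9776 probe sets with a mean over all 14 arrays at or above the 30th percentile were tested. The test was limma's (version 3.58.1, R 4.3.3), with lmFit on the arrays compared and eBayes with trend. P-values are two-sided and adjusted by Benjamini-Hochberg over all tested probe sets. The fit was also run on simulated data, but the outcome is not given here and no result above rests on it. Single genes also had an exact two-sided permutation test over arrays. Genes were named by rank (20 largest rises and 20 largest falls called without overlap), by list (the 3 largest rises and 3 largest falls past the test in each) or in every case (16 eye, neuron, glia, muscle and fat body genes). The eye genes so, gl, eys, oc, dac, ro, t, pr, cl, st, cn, or, cm, rb, santa-maria, rdhB, ninaB and Pdh, and TpnC73F, Yp1, Yp2, Yp3, bmm, Lpin, Fbp1, spir, MESK2 and rhea, were chosen after their values were seen. The members and lists were chosen with earlier results of these data known. IP replicate numbers follow accession order and pair nothing. Alternatives were other scalings, pseudocounts, filters, variance models, probe set means, arrays left out and Rh1 heads as reference. Figures used Python 3.11.15, numpy 2.4.6, pandas 2.3.3 and matplotlib 3.10.9.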

Additional observations from a re-analysis of the deposited data

Results flagged for a closer look

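Each of the 202 named genes was looked at for a lone array, in the 4 IP arrays and in the 6 CS head arrays apart, 404 groups of values in all. A lone array is one whose gap to the nearest other array, divided by the whole range of the group on the log2 scale, exceeds Dixon's 95% critical value. Chance gives about 1 in 20 groups. There were 29, 21 in IP and 8 in CS heads, and 13 of them were IP replicate 4. The values in brackets are that gap as a share of the range. IP replicate 4 stood below its group for Atx-1 (0.837), CG14636 (0.881), CG13117 (0.956), se (0.966), RpL24-like (0.972), Strn-Mlck (0.935), trp (0.878) and mRpS30 (0.926). IP replicate 4 stood above its group for SCCRO4 (0.846), Rab19 (0.895), Klc (0.836), Catsup (0.855) and fne (0.935). IP replicate 1 stood below its group for Drsl5 (0.847). IP replicate 1 stood above its group for SLO2 (0.909), Clk (0.909), ps (0.841) and Sh (0.891). IP replicate 2 stood below its group for Nrx-IV (0.936) and cwo (0.848). IP replicate 3 stood above its group for Pph13 (0.914). CS head replicate 4 stood below its group for Cpr100A (0.695), blw (0.687) and Gat (0.769). CS head replicate 4 stood above its group for Drsl5 (0.638). CS head replicate 5 stood below its group for Phm (0.6254) and Obp47b (0.777). CS head replicate 5 stood above its group for Hsp26 (0.701). CS head replicate 6 stood below its group for fit (0.638). A gap can be large where the range is small: the whole range of Pph13 over IP was 0.18 on the log2 scale and that of fne 0.14, against 3.64 for Atx-1 and 3.37 for CG13117.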

How the results depend on the processing

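The 3 counts of calls stayed within 1.5 times of their values in every alternative run. Probe sets past adjusted p 0.05 numbered 5969, and 4592 to 7714 over the alternatives (5581 to 6538 with a single array left out). Genes called higher numbered 694, and 522 to 776 (643 to 755), and genes called lower 709, and 512 to 804 (662 to 765). No scaling moved the share of higher among all calls by over 10 percentage points or the median of all genes by over 0.1. Of 201 named genes 158 kept their direction and side of the threshold in every alternative, 35 lost the threshold in at least 1 and 13 changed sign in at least 1; the causes were not tested. With Rh1 heads as reference the sign turned for Ugt35B1 (-1.26), Cyp4e3 (-0.063), Cyp4p1 (-0.27), Ddc (-0.081), Obp99d (-0.059), trp (2.39), inaD (2.41), Arr2 (0.67), trpl (2.74), Arr1 (0.47), U2af50 (0.38) and Ggamma30A (0.36). It turned with quantile scaling for trp (0.32), inaD (0.045) and trpl (0.042), with cyclic loess scaling for trp (0.23), inaD (0.082) and Arr2 (0.17), with array weights for trp (0.18), and with the mean of all probe sets for PIP5K59B (-0.10). It also turned without IP replicate 4 for trp (0.27) and inaD (0.051), with ranges of -0.28 to 0.27 and -0.29 to 0.051 over single arrays left out, and without IP replicates 2 and 4 for trp (0.31) and inaD (0.023). List counts of 3 or more that moved by over 1.5 times stand beside the lists, except that 6 higher trafficking calls became 10 and 5 lower proton pump calls became 3 with cyclic loess scaling, 5 lower proton pump calls became 2 without IP replicates 2 and 4, and 3 higher proteasome calls became 1 without IP replicates 2 and 4; those alternatives were chosen after seeing the data. Counts of 1 or 2 also moved: beside light response and glia, lower calls of heat shock genes became 1, higher calls of cytosolic ribosome genes 1 and lower ones 0 to 2, and lower calls of mitochondrial ribosome genes and higher calls of antennal and immune genes 0, while lower calls of eye regulators and trafficking genes and higher calls of cuticle genes became 2.

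IP arrays carry no replicate number in the labels, so no paired analysis was possible for them. Rh1 and CS heads share numbers 1 to 4, and with the number as a replicate block 4701 probe sets passed in Rh1 heads versus CS heads, against 4961 for the same arrays with no block and 5291 for all arrays. Same-numbered arrays did not deviate together (correlations of their deviations from -0.083 to 0.056), so they share only a number. Leaving out single arrays gave 4606 to 5342. The values carry no detection calls, so how far dim genes lie above background is not known here.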
